A study of Homo sapiens with 2 samples.

Results

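The 8 genes described here encode the caspase-9 arm of apoptosis and the inhibitors that hold it in check: the inhibitor of apoptosis (IAP) proteins XIAP, BIRC2, BIRC3 and BIRC6, the apoptosome components APAF1, CASP9 and CYCS, and the IAP antagonist DIABLO. They were chosen by name, as array probes that the platform annotation assigns to exactly 1 gene symbol. Of the 8, 7 were measured, each by 1 probe, among 18377 genes measured in all. No listed probe was assigned to BIRC3, either alone or together with other genes, and it was not analysed here.

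Expression was measured in K562, an established human leukaemia line whose growth is driven by the fusion kinase BCR-ABL1. The labels describe one culture grown with erythropoietin (EPO), a cytokine needed for making red cells, and another whose label names no EPO. From the growth protocol the second is taken as grown without it. Both cultures received 2 µM imatinib, an inhibitor of BCR-ABL1, for 6 h, so every difference is between imatinib-treated cells, and cells without imatinib were not analysed here. There was 1 whole-transcript array per group, so no value has a replicate error, no test or p-value can be given, and precision is limited by the number of arrays.

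When mitochondria release cytochrome c, the product of CYCS, it binds APAF1, which assembles into the apoptosome and activates the initiator caspase CASP9. CASP9 then cleaves executioner caspases, which dismantle the cell. XIAP binds and inhibits active caspases directly, whereas BIRC2 (cIAP1) and BIRC3 (cIAP2) act mainly as ubiquitin ligases in TNF receptor and NF-kappaB signalling. BIRC6 is a very large IAP that also carries a ubiquitin-conjugating domain. DIABLO (SMAC) leaves the mitochondria together with cytochrome c and displaces IAPs from caspases. BCR-ABL1 and EPO receptor signalling are both known to restrain this pathway in red cell precursors and leukaemia cells.

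The start regions of 4 members are shown because these genes mark the ends of the range: BIRC2 and CASP9 had the largest differences, BIRC6 had the smallest, and XIAP had the members' highest value on the array with EPO. All 8 genes matched the RefSeq promoter table (GRCh38.p14), which gives 16 start sites for them. For each gene the most upstream start site was taken, from 250 bases before it to 20 bases after it. Capitals mark matches, on either strand, to 5 motifs: the cyclic AMP response element TGACGTCA, the SP1 box GGGCGG, the ETS motif CCGGAAG, the STAT5 motif TTCNNNGAA and the NF-kappaB consensus.
BIRC2, chr11:102346964-102347233, strand plus: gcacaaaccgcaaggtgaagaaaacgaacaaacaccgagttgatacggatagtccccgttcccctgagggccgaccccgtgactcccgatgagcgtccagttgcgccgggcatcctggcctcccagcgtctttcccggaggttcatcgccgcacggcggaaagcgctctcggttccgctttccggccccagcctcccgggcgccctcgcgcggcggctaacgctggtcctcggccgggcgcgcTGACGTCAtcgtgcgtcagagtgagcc
CASP9, chr1:15524771-15525040, strand minus: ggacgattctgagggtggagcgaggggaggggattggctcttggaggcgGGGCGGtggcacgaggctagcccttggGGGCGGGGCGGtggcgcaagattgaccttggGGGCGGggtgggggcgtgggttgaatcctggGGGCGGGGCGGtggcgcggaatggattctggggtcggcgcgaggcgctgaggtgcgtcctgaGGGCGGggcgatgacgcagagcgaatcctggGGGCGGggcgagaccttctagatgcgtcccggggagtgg
XIAP, chrX:123859458-123859727, strand plus: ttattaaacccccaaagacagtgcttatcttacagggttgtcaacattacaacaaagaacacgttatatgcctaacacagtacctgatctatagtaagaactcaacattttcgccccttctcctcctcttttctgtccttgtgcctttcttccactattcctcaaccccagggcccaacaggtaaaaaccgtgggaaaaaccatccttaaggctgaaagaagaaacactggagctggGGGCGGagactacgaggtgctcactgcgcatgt
BIRC6, chr2:32356773-32357042, strand plus: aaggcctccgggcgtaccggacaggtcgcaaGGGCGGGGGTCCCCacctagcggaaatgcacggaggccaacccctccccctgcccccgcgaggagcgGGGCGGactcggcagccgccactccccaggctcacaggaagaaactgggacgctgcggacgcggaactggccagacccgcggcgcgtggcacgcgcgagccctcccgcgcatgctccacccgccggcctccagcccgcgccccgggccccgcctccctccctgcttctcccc

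The BIRC2 window held the full cyclic AMP response element, TGACGTCA, from position -7 to position 1 counted from the start site. Of 35116 windows of the same length in the table, 1.83% held that element. The CASP9 window held 8 SP1 boxes, some of them overlapping, and 0.664% of all windows held 8 or more. XIAP held 1 SP1 box, from -13 to -8, in a window with 45.9% G and C, against a median of 58.1% over all windows. The windows of its other start sites had 69.3% and 57.8%. BIRC6, whose window was 75.9% G and C, held 2 SP1 boxes and 1 match to the NF-kappaB consensus that overlaps the more upstream box. SP1 boxes were in the windows of 5 of the 8 genes, and in 43.7% of all windows. The NF-kappaB consensus was found in 2 of the 8 genes, as GGAAATCCCC and GGAGTTCCCC in the unmeasured BIRC3 and 1 match in BIRC6, and in 10.4% of all windows. The STAT5 and ETS motifs had 0 matches in these 8 windows and occurred in 7.05% and 9.69% of all windows. Windows of start sites further downstream, not shown here, held an ETS match in BIRC6, CASP9 and DIABLO. These matches describe letters and were not tested as binding sites.

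The deposited values are read as log2 and are centred on a baseline, not given in the sources used here. A value is a deviation from that baseline and not a level, so levels of different genes cannot be compared, and the erythroid identity of the cells cannot be checked from it. A difference is the value with EPO minus the value without EPO. A gene was called higher or lower at a difference of 2-fold, which is 1 on the log2 scale. The base of the logarithm is also not given, and each fold rests on reading it as 2. The arrays differed in spread, with a standard deviation over probes of 0.134 with EPO and 0.431 without EPO. Counted from the baseline, the value without EPO made up 85.9% of the difference of BIRC2 and 84.2% of that of CASP9. The share was 68.6% for DIABLO, 54.3% for XIAP, 109% for CYCS and 16.6% for APAF1, and BIRC6 had nearly equal values. A higher value with EPO is thus a difference between arrays and does not show which array changed.

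As deposited, all 7 measured members had a higher value on the array with EPO than on the array without it, although with the median of 229 cell-machinery genes subtracted this held for 4 of the 7. Over all genes, 45.4% had a difference above 0 as deposited. BIRC2 and CASP9, 2 of the 7, were at least 2-fold higher, beside 6.19% of all genes. Of the 7, 0 were at least 2-fold lower, beside 0.898% of all genes. At 1.5-fold, 4 of the 7 were higher, beside 18.1% of all genes, and at 3-fold 0 of the 7, beside 0.365%. The members' median difference was 0.88, against -0.047 for all genes. The difference ran from 0.027 for BIRC6 to 1.07 for BIRC2. BIRC2 and CASP9 were just past 2-fold, XIAP and DIABLO (both 0.88) were below it, and CYCS (0.38), APAF1 (0.30) and BIRC6 were lower still. With 1 array per group, it cannot be said which neighbours in that order differ beyond error.

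**Figure D1:**
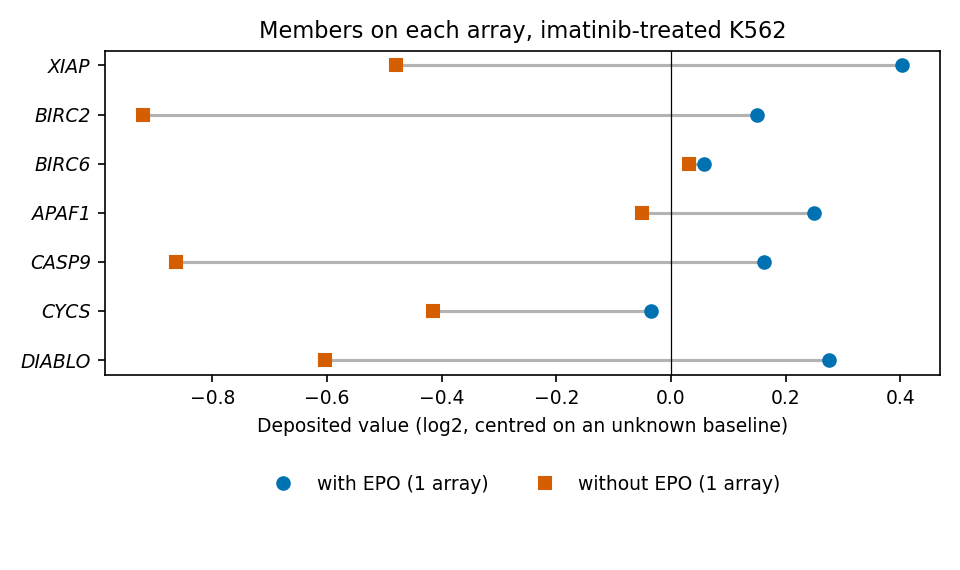
Deposited log2 value (horizontal axis, centred on an unknown baseline) of each of the 7 measured members on the array with EPO (circles) and the array without EPO (squares), with a line joining both values of a gene. Every circle lies to the right of its square as deposited (with the machinery median subtracted, 3 of 7 differences are below 0), and the lines are longest for BIRC2 (1.07) and CASP9 (1.03) and shortest for BIRC6 (0.027).

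Among the IAP genes, BIRC2 had a value of 0.15 with EPO and -0.92 without EPO. The difference of 1.07 was 2.10-fold and lay above that of 95.3% of the other genes. The value without EPO was low for the array, at percentile 4.68 of all other genes, and the value with EPO was at percentile 87.7. XIAP had a value of 0.40 with EPO and -0.48 without EPO. Its difference of 0.88 was 1.84-fold, at percentile 91.1. XIAP stood out among the members on the array with EPO, where its value was at percentile 99.6, whereas its value without EPO was at percentile 17.6. BIRC6 had nearly equal values, 0.059 with EPO and 0.031 without EPO. The difference was 0.027, or 1.02-fold, and BIRC6 was the only measured member whose value without EPO was above 0. The 3 measured IAP members thus differed among themselves by more than 1 on the log2 scale, and BIRC2 and BIRC6 stood at the ends of the whole set. XIAP has 3 pseudogenes in the RefSeq table, and whether its probe also detects them was not tested.

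The apoptosome genes were spread over a narrower range, from 0.30 to 1.03. CASP9, the initiator caspase, had a value of 0.16 with EPO and -0.86 without EPO. The difference was 1.03, or 2.04-fold, at percentile 94.4 of the other genes and just past the 2-fold threshold. APAF1, the scaffold that binds CASP9, had a value of 0.25 with EPO and -0.050 without EPO, a difference of 0.30 or 1.23-fold. Its value with EPO was high for that array, at percentile 96.6, but its value without EPO was near the middle, at percentile 38.7. CYCS had a value of -0.034 with EPO and -0.42 without EPO, a difference of 0.38 or 1.30-fold. It was the only measured member below 0 on both arrays. CYCS has 45 pseudogenes in the RefSeq table, and whether its probe also detects these near-identical copies was not tested, so its value is uncertain.

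DIABLO, the antagonist, had a value of 0.28 with EPO and -0.60 without EPO. The difference of 0.88 was 1.84-fold, at percentile 91.1 of the other genes. DIABLO and XIAP both had a difference of 0.88, and BIRC2 and CASP9 had 1.07 and 1.03. With 1 difference per gene, such closeness gives no pattern, and a relation between these genes was not tested. Inhibitors and promoters of cell death stood on the same side of 0 as deposited, and with the machinery median subtracted 1 of 3 inhibitors and 2 of 4 promoters stood below it.

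**Figure D2:**
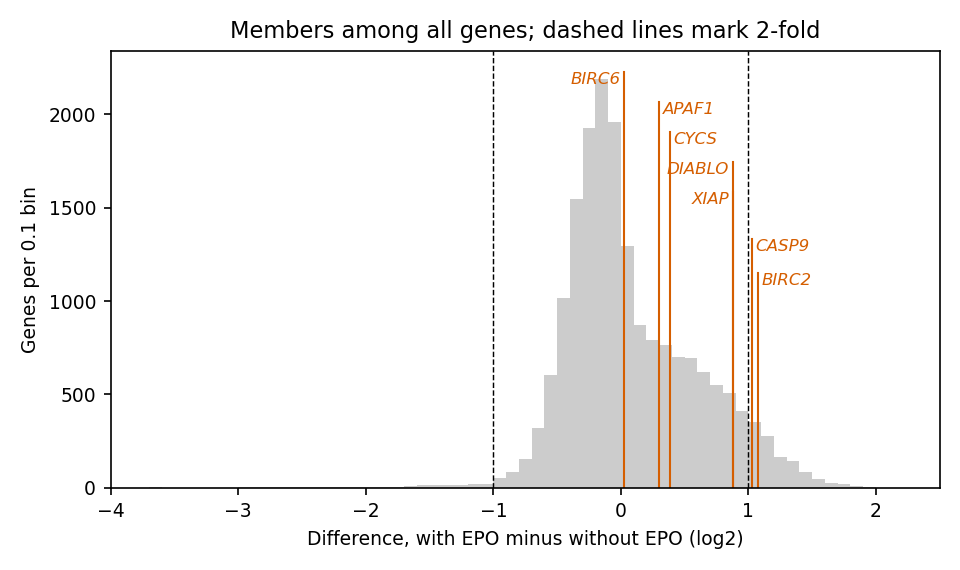
Histogram of the log2 difference, with EPO minus without EPO, of all 18377 genes (horizontal axis, log2; vertical axis, genes per bin), with a vertical line at each of the 7 members and dashed lines at 2-fold. The members lie right of the main peak of the genes, and BIRC2 and CASP9 lie just past the dashed line; line heights only separate the names.

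The calls depended on how the arrays were scaled. The cell-machinery genes (229 genes picked by symbol, among them subunits of the proteasome, the nuclear pore, RNA polymerase II, the spliceosome and the mitochondrial ribosome) had a median difference of 0.48. Gene families that most cells keep silent (454 genes such as olfactory receptors and keratin-associated proteins) had a median of -0.33. With the machinery median subtracted, 0 of 7 members were at least 2-fold higher, against 0.664% of all genes, and 0 of 7 at least 2-fold lower, against 6.85%. On that scale 4 of 7 lay above 0, against 22.0% of all genes, with BIRC2 at 0.59 and CASP9 at 0.54. XIAP and DIABLO both stood at 0.40, while CYCS (-0.10), APAF1 (-0.18) and BIRC6 (-0.46) changed sign. With the silent median subtracted, 4 of 7 were at least 2-fold higher, against 15.1% of all genes, since XIAP and DIABLO both reached 1.21, and all 7 lay above 0, against 81.1%. The differences of all 7 were within the middle 95% of those of machinery genes, from -0.56 to 1.40, with BIRC2 at percentile 87.8 and BIRC6 at percentile 22.3 of them. The middle 95% of the silent families ended at 0.31, with APAF1 (0.30) and BIRC6 (0.027) within it and 5 of the 7 above it. The share of all genes above 0.31 was not counted, but 45.4% lay above 0 and 18.1% were at least 1.5-fold higher.

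**Figure D3:**
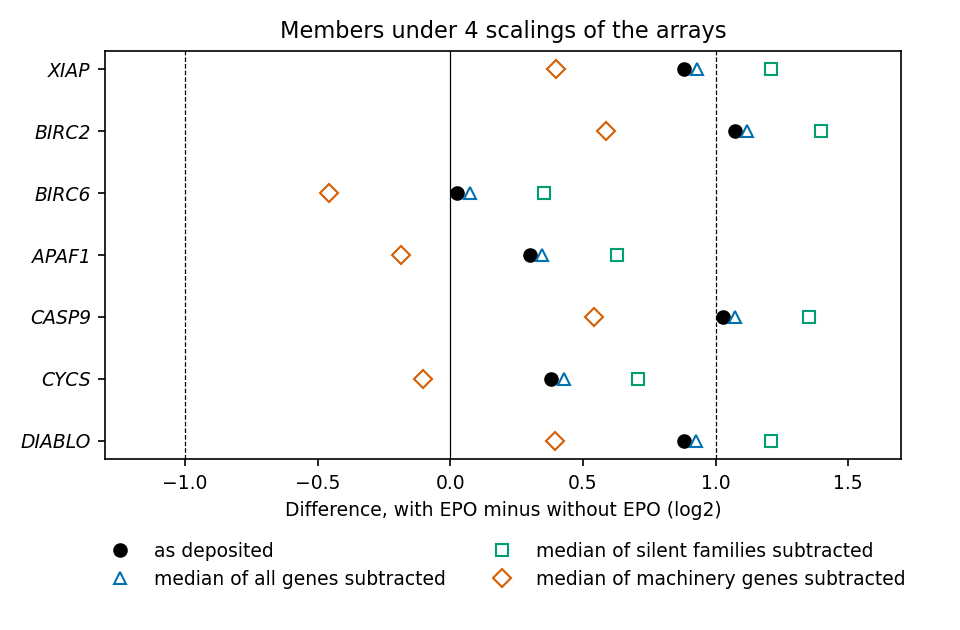
Log2 difference, with EPO minus without EPO, of each measured member (horizontal axis) as deposited and with the median of all genes, of silent families or of machinery genes subtracted; solid line at 0, dashed lines at 2-fold. The order of the members is the same in each scaling, since each subtracts 1 value from all; no member is past 2-fold with the machinery median subtracted, and 4 are with the silent median subtracted.

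The rest of the pathway was described through 7 lists. Of 63 listed genes 58 were measured, 8 of which passed 2-fold in the higher direction (6.19% of all genes) and 0 in the lower (0.898%). Their median difference was 0.28, below the members' 0.88 and above the -0.047 of all genes. With the machinery median subtracted, only AIFM1 of the 8 stayed past 2-fold, beside 0.664% of all genes. NOL3, an inhibitor of death receptor and mitochondrial apoptosis chosen with its value in view, was at least 2-fold lower, at -1.08 (6.85% of all genes). The sign of the list medians depended on the scaling: with the machinery median subtracted only that of the caspase substrates stayed above 0 (0.19), and with the silent median subtracted those of the other IAP genes (0.12) and of the initiator and inflammatory caspases (0.22) turned positive.

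**Figure D4:**
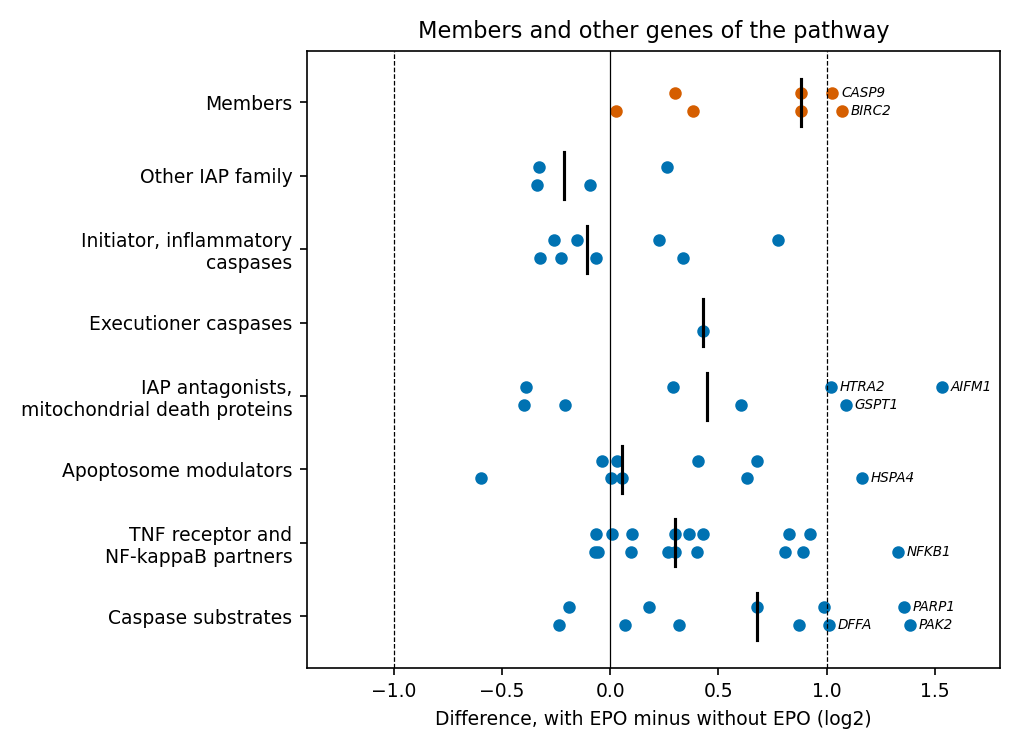
Log2 difference, with EPO minus without EPO (horizontal axis), of each measured gene of the members and of the 7 other lists; points are genes, the black bar is each list's median, and dashed lines mark 2-fold. Named genes are past 2-fold, and the other IAP genes and the inflammatory caspases lie mostly left of 0, as do 10032 of all 18377 genes.

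The 4 other IAP family genes were all within 2-fold, beside 6.19% of all genes higher and 0.898% lower. Their median was -0.21, and 3 of the 4 lay below 0, as did 10032 of all 18377 genes. BIRC7, the melanoma IAP, had a value of -0.093 with EPO and 0.24 without EPO, a difference of -0.34. NAIP, an IAP that senses bacterial proteins and lies in a duplicated region, so that its identity here is uncertain, stood at -0.33. BIRC5 (survivin), which acts mainly in mitosis, stood at 0.26, and its 2 probes differed, with 0.091 and 0.44.

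Among the other initiator and inflammatory caspases, 0 of 8 were past 2-fold, beside 6.19% of all genes higher and 0.898% lower. The median was -0.11. CASP2, an initiator activated by a platform of its own, had a value of 0.13 with EPO and -0.65 without EPO, a difference of 0.78 or 1.71-fold. CASP10, an initiator of the death receptor pathway, stood at 0.34. CASP5, an inflammatory caspase, stood at -0.32. The inflammatory caspases CASP1 and CASP4 (both chosen with values in view) were at -0.26 and -0.23, and CASP12 of the same list was at -0.064. CASP9 was thus the only one of the 10 measured caspases past 2-fold as deposited, beside 6.19% of all genes higher. With the machinery median subtracted none was, beside 0.664% of all genes higher and 6.85% lower. CASP6, the only executioner caspase analysed here, had a value of 0.10 with EPO and -0.33 without EPO, a difference of 0.43.

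Of 8 IAP antagonists and mitochondrial death proteins, 3 were at least 2-fold higher, beside 6.19% of all genes, and 1 with the machinery median subtracted, beside 0.664%. The median was 0.45. HTRA2, a mitochondrial protease that binds IAPs as DIABLO does, had a value of 0.069 with EPO and -0.95 without EPO, a difference of 1.02. GSPT1, a translation termination factor of which a processed form binds IAPs, stood at 1.09. AIFM1, a flavoprotein needed for the respiratory chain that can also move to the nucleus in dying cells, had a value of 0.26 with EPO and -1.27 without EPO. Its difference of 1.53 was 2.89-fold, larger than that of any member. The lowest of the list, chosen with values in view, was ENDOG, a mitochondrial nuclease, at -0.40.

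Of 9 apoptosome modulators, whose median was 0.055, 1 passed 2-fold, beside 6.19% of all genes. With the machinery median subtracted, 0 were at least 2-fold higher, beside 0.664%, and 1 was at least 2-fold lower, NOL3 at -1.08, beside 6.85%. The gene past 2-fold as deposited was HSPA4, a co-factor of the HSP70 chaperones, at 1.17. ANP32A, which promotes apoptosome assembly, stood at 0.68, and HSP90AA1, a chaperone that can bind APAF1, at 0.63. PTMA, prothymosin alpha, chosen with its values in view, was averaged over 6 probes that ran from -1.02 to 0.34, so its mean of 0.0029 summarises probes that disagree.

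Of 17 measured partners of IAPs in TNF receptor and NF-kappaB signalling, 14 lay above 0 (45.4% of all genes) and 1 passed 2-fold (6.19% of all genes), and the median was 0.30. With the machinery median subtracted, 5 of the 17 lay above 0 (22.0% of all genes) and 0 were at least 2-fold higher (0.664% of all genes). NFKB1, which encodes the precursor of the p50 subunit, had a value of 0.32 with EPO and -1.01 without EPO, a difference of 1.33 or 2.51-fold. TAB2, an adaptor of the kinase TAK1, stood at 0.93. CFLAR, which encodes the caspase-8 inhibitor c-FLIP, stood at 0.89, but its 2 probes gave 0.41 and 1.37. RELA and RELB, a pair of other NF-kappaB subunits chosen with values in view, had differences of 0.30 and 0.0066.

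Of 11 caspase substrates 3 passed 2-fold, beside 6.19% of all genes. With the machinery median subtracted, 0 of the 11 were at least 2-fold higher, beside 0.664%. As deposited, their median of 0.68 was the nearest of the 7 list medians to that of the members. PAK2, a kinase activated by caspase cleavage, stood at 1.39. PARP1, the DNA repair enzyme whose cleavage is a common marker of apoptosis, had a value of 0.16 with EPO and -1.20 without EPO, a difference of 1.36 or 2.56-fold. DFFA, the inhibitor of the apoptotic nuclease, stood at 1.01, whereas the nuclease itself, DFFB, chosen with its value in view, stood at 0.069.

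Markers of cell types were set beside these differences. Over all genes, 6.19% were at least 2-fold higher and 0.898% at least 2-fold lower. Of 7 measured erythroid genes, 1 was past 2-fold, TFRC at 1.02, and the median was 0.25. TAL1 stood at 0.81, EPOR at 0.31, GATA1 at 0.25, KLF1 at 0.24, HBE1 at 0.11 and HBZ at -0.040. Of 5 lymphoid markers 0 passed 2-fold and the median was -0.23, with CD3D, CD2 and CD79A at -0.67, -0.45 and -0.23. Of 6 monocyte and granulocyte markers 1 passed, LYZ at 1.05, and the median was -0.27, with FCN1 and ELANE at -0.77 and -0.59. Of 6 epithelial and stromal markers 1 passed, EPCAM at 1.25, and the median was 0.015, with ACTA2 and COL1A1 at 0.83 and -0.57. EPCAM and LYZ stood on the members' side of 0, and their part in the result was not tested. With the machinery median subtracted, 0 genes of the 4 marker lists were at least 2-fold higher, beside 0.664% of all genes. CD3D (-1.15), FCN1 (-1.25), ELANE (-1.07) and COL1A1 (-1.05) were then at least 2-fold lower, beside 6.85% of all genes. On that scale TFRC, LYZ and EPCAM stood at 0.54, 0.57 and 0.77, and the erythroid median was -0.23. Centred values cannot be summed to a level or show that a marker is absent.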

How the data were processed

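Total RNA of 2 K562 cultures, isolated with a column kit per the labels' protocols, was hybridised to Affymetrix Gene ST arrays. The deposited log2 values cover 28869 probes. How the authors corrected, summarised and normalized the signals, and the log base, are details not given in the sources used here. For 629 probes (2.18%) one array's value was the negative of the other's, to within 1e-05, as centring on a median over arrays can give. The difference between the arrays cancels that baseline.

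Of the probes, 19310 carried 1 gene symbol, 1752 several and 7807 were not listed. Entrez IDs matched 19279 of the 19310 to RefSeq symbols (GRCh38.p14). Probes were averaged per gene. The members, lists and reference classes were chosen with earlier results of these data known. Named genes are all members and, in each list, those past 2-fold and the 3 largest differences, and others are marked as chosen with values in view. Alternatives were other scalings, probe rules, fold thresholds and log bases. Counting was tested on simulated data. Protein sequences were not used here. Python 3.11.15, NumPy 2.4.6, pandas 2.3.3 and matplotlib 3.10.9 were used.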

Additional observations from a re-analysis of the deposited data

How the results depend on the processing

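No paired analysis was possible because each group has 1 array. The count of members at least 2-fold higher, 2 as deposited, became 0 with the machinery median subtracted or at 3-fold, and 4 with the silent median subtracted, at 1.5-fold, or with the values read as natural logarithms. The members' median of 0.88 became 0.93, 0.40 and 1.21 with the median of all genes, machinery genes and silent families subtracted, and 0.65 as a mean. With the machinery median subtracted BIRC2 (0.59) and CASP9 (0.54) fell below 2-fold, and BIRC6 (-0.46), APAF1 (-0.18) and CYCS (-0.10) turned negative. XIAP and DIABLO passed 2-fold with the silent median subtracted (both 1.21) and with natural logarithms, where their differences of 0.88 and 0.88 exceed the threshold. The other pathway genes at least 2-fold higher, 8 as deposited, were 1 with the machinery median and 17 with the silent median subtracted, 19 at 1.5-fold, 0 at 3-fold and 15 with natural logarithms. Those lower, 0 as deposited, were 1 with the machinery median subtracted, with the probe of largest difference, or at 1.5-fold. Of all genes, 1138 were higher as deposited, against 122 and 2781 with the machinery and silent medians subtracted, 3333 at 1.5-fold, 67 at 3-fold and 2646 with natural logarithms. Lower genes numbered 165 as deposited, against 1259, 104, 854, 68 and 477 in the same order, and 255 with probes of several genes included. Each of the 7 members has 1 probe, so the probe rules changed no member. With 1 array per group, replicate spread limits every value and is unknown.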

Other observations

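Genes that shape the inner mitochondrial membrane, where cytochrome c is held before release, were listed together with genes of mitochondrial fission and fusion. The list was made after the members' values had been seen. Of its 15 genes, 4 passed 2-fold in the higher direction and 0 in the lower, beside 6.19% and 0.898% of all genes. The median difference was 0.66. The 4 were DNM1L, the fission GTPase, at 1.22, IMMT and APOO, subunits of the complex at crista junctions, at 1.17 and 1.13, and OMA1, the protease that cleaves OPA1 under stress, at 1.11. OPA1, MICOS10 and CHCHD6 were chosen with values in view. OPA1, the GTPase that keeps crista junctions narrow, stood at 0.98 (0.22 with EPO and -0.76 without EPO). MICOS10 and CHCHD6, also of the crista junction complex, stood at -0.32 and -0.26, so genes of that complex lay on both sides of 0. With the machinery median subtracted, 0 of the 15 were past 2-fold, beside 0.664% of all genes higher and 6.85% lower. The median was then 0.18.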
